A study of Mus musculus with 8 samples.

Results

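Cyclin-dependent kinase (CDK) inhibitors are the proteins that hold a cell before DNA replication, and 8 genes of this kind were followed in hematopoietic stem cells (HSCs) that had lost Mitol, the gene (symbol Marchf5) of an E3 ubiquitin ligase of the mitochondrial outer membrane. The 8 genes were taken by symbol: Cdkn1a, Cdkn1b, Cdkn1c, Cdkn2a, Cdkn2b, Cdkn2c, Cdkn2d and Cdkn3. Of these, 6 are among the 22065 named genes of the count table used here, and all 6 passed the expression filter with 16444 genes in total. Cdkn2a and Cdkn2b have no row in that table, whose lowest row total is 11 counts over the 8 libraries, and were not analysed here. The comparison asked whether the inhibitors that are linked to HSC quiescence differed in mRNA level between Mitol KO and control HSCs.

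All mice were C57BL/6, carried Mitol Flox/Flox and were 8 to 10 weeks of age. The 4 Mitol KO libraries came from mice that were MX1-cre+ and the 4 control libraries from MX1-cre- mice, and both groups received Poly:IC, so that the interferon stimulus and the floxed alleles were shared. Cre was carried by the Mitol KO group only, so the presence of Cre and the loss of Mitol cannot be told apart here. The MX1 promoter answers to interferon in many cell types, so deletion is not specific to HSCs. Lineage- CD150+ CD48- EPCR+ HSCs were sorted from bone marrow 1 week after Poly:IC at 100 cells per library, and reads were counted per gene. The labels do not say whether the libraries came from separate animals, so the p-values measure the spread between these samples.

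Total counts on named genes ran from 7214935 to 9906457 in control libraries and from 9212488 to 12398138 in Mitol KO libraries. The summed count of the targeted gene Marchf5 was not a marker of the genotype, at 274 ± 31.8 normalized counts (mean ± SD, n = 4) in Mitol KO HSCs and 302 ± 29.9 in controls (log2 fold change -0.15, adjusted p = 0.498). The count over a whole gene does not separate the deleted exons from those that remain. Of the genes tested, 770 were higher and 616 lower in Mitol KO HSCs. With upper-quartile scaling the split was 594 higher and 845 lower. Markers of the sorted cell were present in all libraries, with Procr (which encodes EPCR) at 448 and 561 mean normalized counts in Mitol KO and control HSCs. Of 12 genes that mark HSCs or their gate, 3 were lower in Mitol KO HSCs, among them the receptor Kit (log2 fold change -0.75, adjusted p = 0.00705) and the transcription factor Hlf (-0.79, adjusted p = 0.00381), 1 was higher and 8 did not pass the test. These are 25% lower and 8.33% higher, beside 3.75% and 4.68% over all genes tested. The higher one was Cd48, a surface protein excluded by the gate, at 22.2 to 63.4 normalized counts in Mitol KO and 4.49 to 21.7 in control libraries (1.72, adjusted p = 0.0450, called in 2 of 8 fits with a library left out, largest adjusted p 0.138). Slamf1 (which encodes CD150) was at 0.56 (adjusted p = 0.0501) with all Mitol KO libraries above the controls, and Ly6a at 0.76 (adjusted p = 0.0605).

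In mammals these inhibitors form 2 families and a phosphatase that stands by itself. The Cip/Kip proteins p21 (Cdkn1a), p27 (Cdkn1b) and p57 (Cdkn1c) bind cyclin and CDK together and act on cyclin E and cyclin A complexes as well as on cyclin D complexes, which they can also help to assemble. The INK4 proteins, p16 (from Cdkn2a, which also encodes ARF from another reading frame), p15 (Cdkn2b), p18 (Cdkn2c) and p19 (Cdkn2d), bind CDK4 and CDK6 and keep D cyclins away from them. Cdkn3 encodes KAP, a phosphatase that removes the activating phosphate from CDK2, and its mRNA is made mainly in cycling cells. In HSCs, p57 and p27 are known for keeping the cells out of the cycle, p21 is a target of p53 that is induced by many kinds of stress, and p18 restrains the self-renewal divisions.

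The sequences directly before the transcription start are shown for Cdkn1a, the inhibitor with the largest change, and for Cdkn2d and Cdkn3, the measured members whose windows held the letters of a cell cycle element. Each is the 250 bases before the start of the GENCODE canonical transcript on GRCm39, written 5′ to 3′ in the direction of the gene. Capitals mark the searched motifs, which were 3 spellings of an E2F site (TTTGGCGC, TTTCGCGC and TTTCCCGC), the cell cycle homology region CHR (TTTGAA) and the CCAAT box, on both strands.
Cdkn1a, chr17:29312488-29312737 (+ strand): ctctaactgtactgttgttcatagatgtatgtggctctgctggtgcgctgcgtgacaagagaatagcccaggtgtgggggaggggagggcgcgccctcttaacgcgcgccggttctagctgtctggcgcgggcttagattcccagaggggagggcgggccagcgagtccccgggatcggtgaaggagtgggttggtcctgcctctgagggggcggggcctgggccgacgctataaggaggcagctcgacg
Cdkn2d, chr9:21202728-21202977 (- strand): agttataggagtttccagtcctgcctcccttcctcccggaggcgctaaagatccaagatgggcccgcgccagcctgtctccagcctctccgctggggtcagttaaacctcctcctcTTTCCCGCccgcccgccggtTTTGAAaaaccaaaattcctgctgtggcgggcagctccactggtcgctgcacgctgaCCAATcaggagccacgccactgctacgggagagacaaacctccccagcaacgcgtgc
Cdkn3, chr14:46997654-46997903 (+ strand): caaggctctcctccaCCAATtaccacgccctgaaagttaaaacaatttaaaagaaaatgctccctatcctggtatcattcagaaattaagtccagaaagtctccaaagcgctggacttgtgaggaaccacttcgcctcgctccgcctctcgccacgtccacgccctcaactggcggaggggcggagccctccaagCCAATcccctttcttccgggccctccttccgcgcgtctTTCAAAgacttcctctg

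The Cdkn1a window, which extended to 50 bases after the start, held none of these motifs. In Cdkn2d the E2F spelling TTTCCCGC began 134 bases and TTTGAA 114 bases before the start, with CCAAT at 57 bases, and the Cdkn3 window held TTTGAA on the other strand 17 bases before the start and CCAAT at 235 and 55 bases. A further CCAAT lay just after the start in both Cdkn2d and Cdkn3. Among 21747 promoters of protein-coding genes with windows of the same length, 2.33% held any of the E2F spellings, 17.1% held TTTGAA and 39.9% held CCAAT. Among the other members described, Cdkn1b and Cdkn2a held CCAAT, Cdkn2b held TTTGAA and Cdkn2c held none. No matches overlapped each other within a member's window. A match to these letters is a description of the window and not evidence of a bound factor.

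Of the 6 measured inhibitors, Cdkn1a rose and Cdkn1c fell in Mitol KO HSCs, and the other 4, Cdkn1b, Cdkn2c, Cdkn2d and Cdkn3, did not pass the test in either direction. The call was an adjusted p under 0.05 by the quasi-likelihood test of edgeR over all 16444 genes with Benjamini-Hochberg adjustment. Higher calls made up 4.68% and lower calls 3.75% of all genes tested, against 1 of 6 inhibitors in each direction. The median log2 fold change of the 6 was 0.31, beside -0.02 over all genes tested. The same pair of genes had 4 Mitol KO libraries entirely outside the range of the 4 control libraries, a separation found on the higher side in 8.17% and on the lower side in 7.18% of all genes. Each library is a bulk sample, so fewer cells that carry an mRNA and less of it per cell cannot be told apart.

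**Figure D1:**
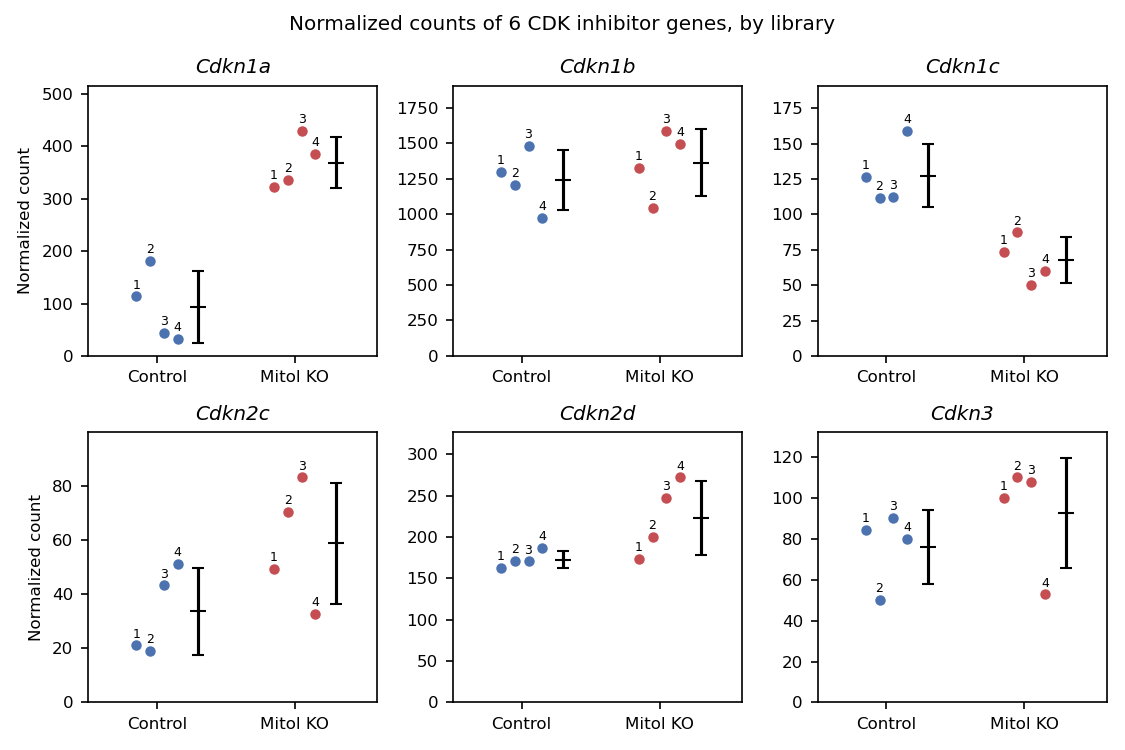
Normalized counts (counts scaled by DESeq2's size factors, linear axes from 0) of the 6 measured inhibitors in 4 control and 4 Mitol KO libraries, with points numbered by replicate and bars for the mean ± SD. The Mitol KO libraries lie between 323 and 429 for Cdkn1a, above every control library, and between 50.3 and 87.3 for Cdkn1c, below every control library.

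Cdkn1a encodes p21 and is found on chromosome 17 (GRCm39, 29309936 to 29319701, plus strand). Its normalized counts were 323, 337, 429 and 385 in Mitol KO replicates 1 to 4 and 113, 182, 43.3 and 33.2 in control replicates 1 to 4. All 4 Mitol KO libraries were above the highest control library, replicate 2. The group means were 369 ± 48.4 and 93.0 ± 69.2 (SD, n = 4), a log2 fold change of 1.99 with a standard error of 0.41 (edgeR, 95% interval 1.11 to 2.87, adjusted p = 0.0170), or 3.97-fold with an interval of 2.16 to 7.31. Among the 770 genes called higher, this was the 35th largest change.

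On the log2 scale the spread of Cdkn1a lay almost wholly in the control group, while the SDs of normalized counts were 69.2 in control and 48.4 in Mitol KO HSCs. From its lowest to its highest library Cdkn1a differed 5.48-fold among control HSCs, and the SD of log2(normalized count + 1) was 1.14 there against 0.187 in Mitol KO HSCs. Control replicates 1 and 2 were the high pair and replicates 3 and 4 the low pair. Leaving out any library kept the call, with log2 fold changes between 1.70 and 2.57 and adjusted p between 0.0101 and 0.0465. The genes Dino and Gm64878 overlap Cdkn1a on the opposite strand in the annotation and have no row in the table, so their reads could stand under Cdkn1a if strand was not used in the counting. Cdkn1c overlaps 4933417O13Rik on the same strand and Gm44732 on the other, also without rows, so reads of 4933417O13Rik could be counted under Cdkn1c with either setting.

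Cdkn1c, the imprinted gene of p57 and of the Cip/Kip genes the one most tied to HSC dormancy, lies on chromosome 7 from 143012069 to 143014806 on the minus strand. Its normalized counts were 73.6, 87.3, 50.3 and 60.3 in Mitol KO replicates 1 to 4 and 127, 112, 112 and 159 in control replicates 1 to 4. Every Mitol KO library was below every control library, with control replicate 4 the highest and Mitol KO replicate 3 the lowest. The means were 67.9 ± 16.1 and 127 ± 22.2 (SD, n = 4), so that the level in Mitol KO HSCs was 53.3% of the control level. By edgeR Cdkn1c changed by -0.93 on the log2 scale with a standard error of 0.22 (95% interval -1.40 to -0.45, adjusted p = 0.0265), which is 1.90-fold lower with an interval of 1.37 to 2.64.

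The Cdkn1c call depended on the libraries more than that of Cdkn1a did, holding in 4 of 8 fits with a library left out. The adjusted p was 0.0539 without Mitol KO replicate 1, 0.0756 without Mitol KO replicate 3, 0.0569 without control replicate 2 and 0.0763 without control replicate 4. The log2 fold change stayed between -1.06 and -0.79 in all 8 fits. Among 616 genes called lower, Cdkn1c ranked 209 by size of the change.

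**Figure D2:**
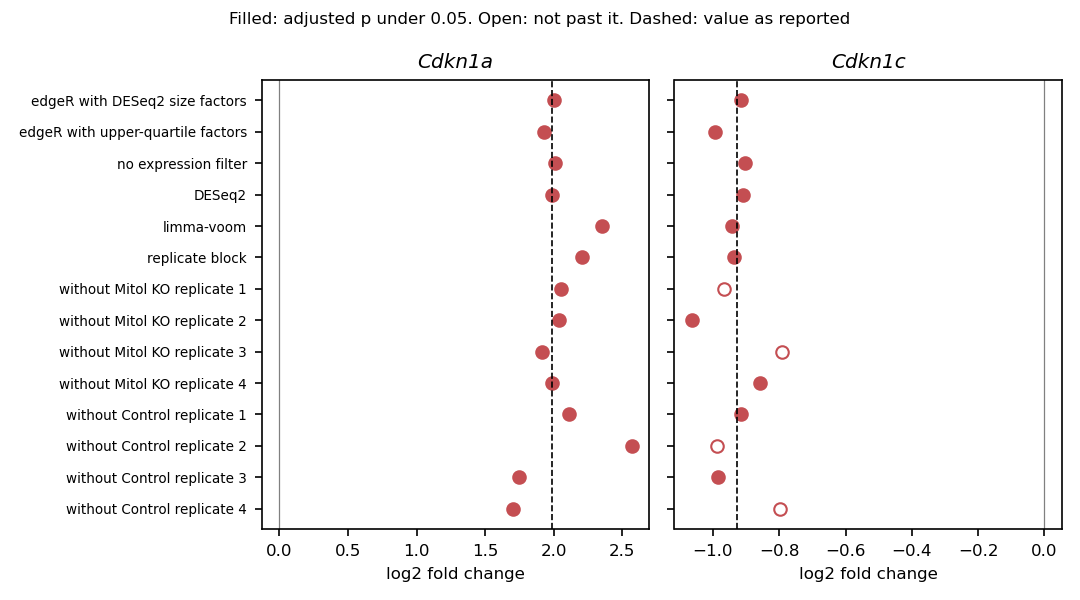
Log2 fold change (Mitol KO minus control) of Cdkn1a and Cdkn1c under each other normalization, filter, tool and left-out library, with filled circles for an adjusted p under 0.05, open circles for values not past it, and a dashed line at the reported value. Cdkn1a stays past the threshold throughout, between 1.70 and 2.57, and Cdkn1c keeps its direction but has 4 open circles among the fits that leave out a library.

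Cdkn1b, the gene of p27, lies on chromosome 6 from 134897364 to 134902476 on the plus strand and had the highest count of the inhibitors. Its normalized counts were 1329, 1045, 1587 and 1495 in Mitol KO replicates 1 to 4 and 1298, 1209, 1479 and 974 in control replicates 1 to 4. The groups overlapped over nearly their whole range, with means of 1364 ± 238 and 1240 ± 210. On the log2 scale the difference was 0.12 (standard error 0.15, adjusted p = 0.641). Its 95% interval of -0.20 to 0.44 bounds the difference within these samples more narrowly than for any other inhibitor measured here.

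The INK4 genes measured were Cdkn2c and Cdkn2d, and neither passed the test. Cdkn2d, the gene of p19, on chromosome 9 from 21199700 to 21202727 on the minus strand, had 173, 201, 247 and 272 normalized counts in Mitol KO replicates 1 to 4 and 162, 171, 170.5 and 187 in control replicates 1 to 4. Of the 4 Mitol KO libraries 3 were above all control libraries, and control libraries spread little, with a mean of 173 ± 10.3 against 223 ± 44.7 in Mitol KO HSCs. The log2 fold change of Cdkn2d was 0.35 (standard error 0.17, 95% interval -0.011 to 0.71, adjusted p = 0.203).

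Cdkn2c, the gene of p18, on chromosome 4 from 109517957 to 109524386 on the minus strand, had 49.3, 70.7, 83.3 and 32.8 normalized counts in Mitol KO replicates 1 to 4 and 21.1, 19.2, 43.3 and 51.2 in control replicates 1 to 4. The ranges overlapped, since Mitol KO replicate 4 was below control replicates 3 and 4. This is a log2 difference of 0.77 (standard error 0.39, adjusted p = 0.226), and its 95% interval of -0.066 to 1.61 was the second widest of the 6 after Cdkn1a. The data do not separate no difference from one of more than 2-fold.

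Cdkn3, on chromosome 14 from 46997904 to 47015505 on the plus strand, had 100.2, 110.1, 108 and 52.9 normalized counts in Mitol KO replicates 1 to 4 and 84.4, 50.01, 90.4 and 79.9 in control replicates 1 to 4. Mitol KO replicates 1 to 3 were above every control library and replicate 4 was below 3 of them. The log2 fold change was 0.27 (standard error 0.27, 95% interval -0.32 to 0.85, adjusted p = 0.566). Cdkn3 overlaps Cnih1 on the opposite strand, which was itself higher in Mitol KO HSCs (log2 fold change 0.53, adjusted p = 0.0478). The strand setting of the counting is not given in the sources used here, so reads of Cdkn3 and Cnih1 may not have been told apart, and their part in the Cdkn3 value was not tested.

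**Figure D3:**
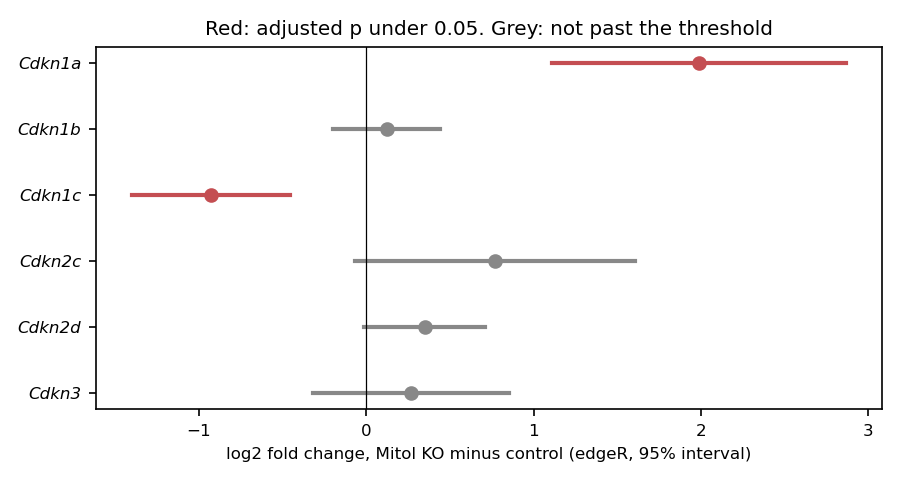
Log2 fold change (Mitol KO minus control) of the 6 inhibitors by edgeR with 95% intervals from 4 libraries per group, in red where the adjusted p was under 0.05. The interval of Cdkn1a lies wholly above 0 at 1.11 to 2.87, that of Cdkn1c wholly below 0 at -1.40 to -0.45, and the other 4 include 0.

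To compare inhibitors with each other, CPM values after TMM scaling were divided by the merged exon length in kilobases (CPM per kb, where CPM is a library's counts scaled to a common total). In control HSCs the mean length-scaled level was 29.1 ± 4.86 CPM per kb for Cdkn1b, 11.1 ± 0.702 for Cdkn2d, 6.32 ± 1.13 for Cdkn1c, 1.64 ± 1.22 for Cdkn1a, 1.04 ± 0.245 for Cdkn3 and 0.567 ± 0.271 for Cdkn2c. The ranges of neighbours in this order were separate down to Cdkn1a, while Cdkn1a and Cdkn3, and Cdkn3 and Cdkn2c, overlapped. In Mitol KO HSCs the mean length-scaled level was 31.7 ± 5.74 CPM per kb for Cdkn1b, 14.2 ± 2.92 for Cdkn2d, 6.44 ± 0.901 for Cdkn1a, 3.32 ± 0.762 for Cdkn1c, 1.25 ± 0.361 for Cdkn3 and 0.980 ± 0.377 for Cdkn2c. Cdkn1a and Cdkn1c had exchanged places, and among neighbours only Cdkn3 and Cdkn2c overlapped there. The exon length assumes that all annotated exons are used.

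**Figure D4:**
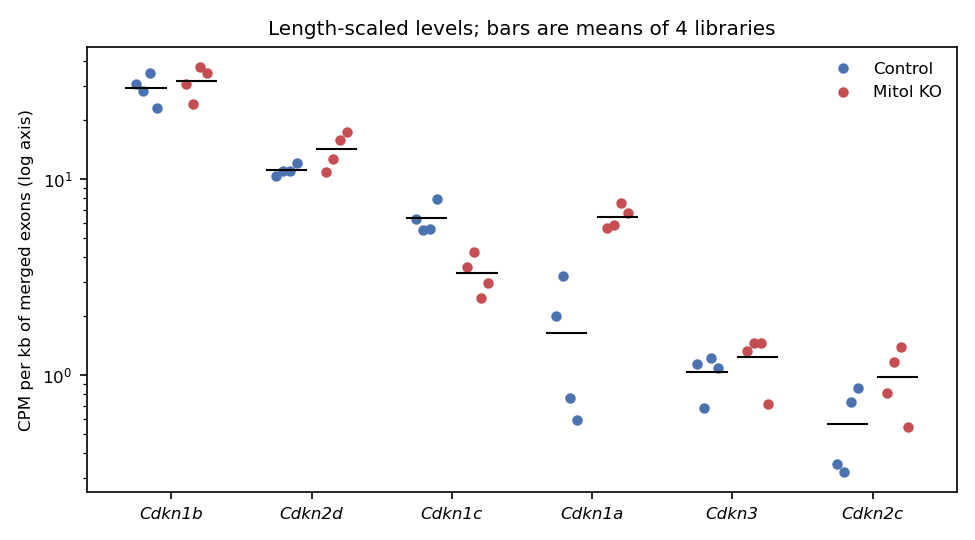
Length-scaled level of each inhibitor (CPM per kb of merged exons, log axis) in 4 control and 4 Mitol KO libraries, with bars at the mean. Cdkn1b and Cdkn2d lead in both groups, and Cdkn1a at a mean of 6.44 stands above Cdkn1c at 3.32 in Mitol KO HSCs, the reverse of 1.64 and 6.32 in control HSCs.

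Within the Cip/Kip family the make-up of the mRNA pool differed between the groups while p27 remained its main member. Cdkn1a made up 14.1%, 17.1%, 16.03% and 15.2% of the summed length-scaled level of the family in Mitol KO replicates 1 to 4, and 5.17%, 8.66%, 1.87% and 1.87% in control replicates 1 to 4, with no overlap. The mean shares of Cdkn1a were 15.6% ± 1.28 and 4.39% ± 3.24 (exact permutation test, 2-sided p = 0.0286, 0.0429 adjusted over the 6 quantities tested). Cdkn1c made up 8.34% ± 3.13 in Mitol KO HSCs and 17.5% ± 5.24 among controls (exact permutation test, 2-sided p = 0.0286, 0.0429 adjusted), and that p rose to 0.0571 without Mitol KO replicate 3 or 4 or control replicate 1 or 4. The Cdkn1b share was 76.1% ± 3.80 and 78.2% ± 4.88 (exact permutation test, 2-sided p = 0.514, 0.571 adjusted). With 4 libraries against 4, 0.0286 is the smallest p this test can give. The shares of Cdkn1a and Cdkn1c follow from the changes of both genes given above, so these p-values add no separate support. The adjustment was over quantities that overlap, among them Cdkn1a per Cdkn1b (exact permutation test, 2-sided p = 0.0286, 0.0429 adjusted).

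The ratio of p21 to p57 mRNA gathers both changes into a value per library. There were 1.57, 1.38, 3.04 and 2.28 units of Cdkn1a per unit of Cdkn1c in Mitol KO replicates 1 to 4, and 0.319, 0.581, 0.138 and 0.0745 in control replicates 1 to 4, on the length-scaled level. The ratio was above 1 in every Mitol KO library and below 1 in every control library (2.06 ± 0.757 and 0.278 ± 0.227), which follows from the separation of both genes and was not tested. The summed length-scaled level of the family was 41.4 ± 5.73 CPM per kb in Mitol KO HSCs and 37.1 ± 4.03 in control HSCs. That of the 2 measured INK4 genes was 15.2 ± 2.90 and 11.7 ± 0.929.

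The partners of the inhibitors moved as well, though not in one direction. Of 11 CDKs and cyclins, 6 rose (Cdk1, Cdk4, Cdk6, Ccne1, Ccna2 and Ccnb1), 1 fell (Ccnd2) and 4 did not pass the test, with a median log2 fold change of 0.90. These are 54.5% higher and 9.09% lower, beside 4.68% and 3.75% over all genes tested. Cdk6, a target of the INK4 proteins, had 9416, 11244, 16972 and 19068 normalized counts in Mitol KO replicates 1 to 4, and all 4 control libraries lay between 5177 and 5302. The log2 fold change of Cdk6 was 1.41 (standard error 0.19, adjusted p = 0.00381), and that of Cdk4 was 0.52 (adjusted p = 0.0313). Among the D cyclins, which pair with CDK4 and CDK6, Ccnd2 fell from 7420 ± 189 to 4800 ± 1105 normalized counts (log2 fold change -0.65, adjusted p = 0.0177), while Ccnd1 at -0.15 (adjusted p = 0.759) and Ccnd3 at 0.03 (adjusted p = 0.931) did not pass.

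Of the 3 listed genes of cyclin E and cyclin A, which Cip/Kip proteins restrain, 2 rose. Ccne1, the gene of cyclin E1, rose from 44.4 ± 6.05 to 139 ± 20.8 normalized counts (log2 fold change 1.62, adjusted p = 0.00344). Ccna2, the gene of cyclin A2, rose from 225 ± 124 to 859 ± 298 (log2 fold change 1.90, adjusted p = 0.0119). Cdk2, their kinase, did not pass the test (log2 fold change 0.10, adjusted p = 0.654), nor did Ccne2 (0.90, adjusted p = 0.130). The mitotic pair Cdk1 and Ccnb1 had log2 fold changes of 1.08 (adjusted p = 0.0236) and 1.57 (adjusted p = 0.0392). The calls of Cdk6, Ccne1 and Ccna2 held in all 8 fits with a library left out, that of Ccnd2 was lost without Mitol KO replicate 3 or control replicate 2 (largest adjusted p 0.0608), and those of Cdk1, Cdk4 and Ccnb1 were lost in 4, 6 and 6 of the 8 fits (largest adjusted p 0.0753, 0.0886 and 0.107).

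CDK inhibitors act on the cycle through the pocket proteins, which hold E2F factors at promoters until CDKs phosphorylate them. Of 19 pocket protein, E2F and DREAM complex genes, 6 rose (Rbl1, E2f2, E2f4, E2f7, E2f8 and Mybl2), 1 fell (Rbl2) and 12 did not pass the test, with a median log2 fold change of 0.47. The shares were 31.6% higher and 5.26% lower, beside 4.68% and 3.75% over all genes tested. E2f2 and E2f7, an activator and a repressor of the E2F family that are themselves induced in cycling cells, had log2 fold changes of 1.70 and 1.33 (adjusted p = 0.00844 and 0.00634) and kept their calls in all 8 fits with a library left out. The pocket proteins p130 (Rbl2), the form found in resting cells, and p107 (Rbl1), the form made in cycling cells, moved in opposite directions, by -0.35 (adjusted p = 0.0356) and 0.57 (adjusted p = 0.0416). Both of these calls are weak, since that of Rbl2 held in 2 and that of Rbl1 in 1 of the 8 fits with a library left out, with largest adjusted p of 0.104 and 0.115. E2f8, Mybl2 and E2f4 kept theirs in 6, 4 and 2 (largest adjusted p 0.0545, 0.0610 and 0.0898). The number of these genes called higher was 2 without Mitol KO replicate 2 or control replicate 4, 3 without Mitol KO replicate 1 or control replicate 2, 4 without Mitol KO replicate 3 or control replicate 3, and 12 without Mitol KO replicate 4. Rb1 itself was at 0.38 (adjusted p = 0.0532).

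**Figure D5:**
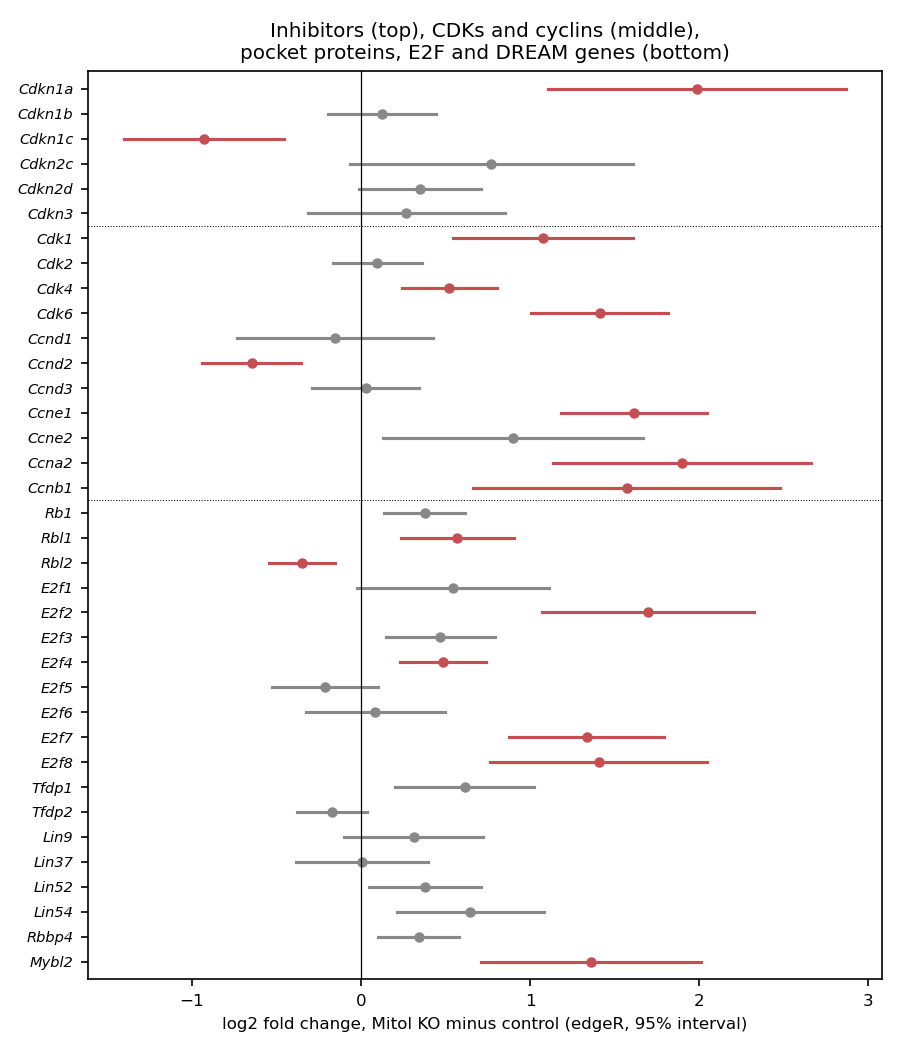
Log2 fold change (Mitol KO minus control, edgeR, 95% intervals, 4 libraries per group) of the 6 measured inhibitors, 11 CDKs and cyclins, and 19 pocket protein, E2F and DREAM genes, in red where the adjusted p was under 0.05. Most values in the lower groups lie above 0, with Ccnd2 at -0.65 and Rbl2 at -0.35 the calls in the other direction.

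Inhibitor proteins are also set by their destruction, p27 and p57 by the SCF ligase with Skp2 and Cks1b, and p21 by Skp2 and by the CRL4 ligase with Dtl and Ddb1. Of 10 genes tested, which were those of these ligases and Rnf123, 1 rose, Ddb1 (log2 fold change 0.40, adjusted p = 0.0320), and 9 did not pass. That is 10% higher, beside 4.68% of all genes tested. The Ddb1 call held in 2 of the 8 fits with a library left out, with a largest adjusted p of 0.0936. Skp2 was at 0.25 (adjusted p = 0.341), Cks1b at 0.95 (adjusted p = 0.0503) and Dtl at 0.81 (adjusted p = 0.101). These are mRNA values, and the amounts of the inhibitor proteins were not measured here.

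Of 13 factors known to induce inhibitor genes, 1 rose (Trp53) and 2 fell (Smad3 and Klf6), and 10 did not pass the test. These are 7.69% higher and 15.4% lower, beside 4.68% and 3.75% over all genes tested. Trp53, the gene of p53, which activates Cdkn1a, was at 2246 ± 131 and 1786 ± 145 normalized counts in Mitol KO and control HSCs (log2 fold change 0.31, adjusted p = 0.0423). Smad3, which carries TGF-β signals to Cdkn2b, Cdkn1a and Cdkn1c, was at -0.33 (adjusted p = 0.0272), and Klf6, an activator of Cdkn1a, at -0.55 (adjusted p = 0.0388). Foxo3, which activates Cdkn1b in resting cells, was at -0.20 (adjusted p = 0.119). None of the 3 calls held in all 8 fits with a library left out: Trp53 and Klf6 kept theirs in 2 and Smad3 in 4, with largest adjusted p of 0.127, 0.114 and 0.0923. The Trp53 call was also lost with the replicate number as a block (edgeR, adjusted p = 0.0543), with a largest adjusted p of 0.0711 over the other settings. That of Klf6 was lost with limma-voom (adjusted p = 0.0515).

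Of 14 repressors, mainly Polycomb proteins that silence the Cdkn2a and Cdkn2b locus, Ezh2 rose (log2 fold change 0.63, adjusted p = 0.0210), Cbx7 fell (-0.69, adjusted p = 0.0394) and 12 did not pass the test. That is 7.14% in each direction, beside 4.68% higher and 3.75% lower over all genes tested. The Ezh2 call held in 4 and the Cbx7 call in 2 of the 8 fits with a library left out, with largest adjusted p of 0.0618 and 0.0999. Bmi1, the Polycomb protein best known for this locus in HSCs, was at -0.18 (adjusted p = 0.494), and Myc, which represses Cdkn1a and Cdkn2b, at -0.22 (adjusted p = 0.367).

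Cdkn1c lies in an imprinted domain with the noncoding RNA Kcnq1ot1 and its neighbours. Of 7 other genes of this domain tested, 0 were called in either direction by edgeR, DESeq2 or limma-voom, 2 had an unadjusted p under 0.05 by edgeR, and the median log2 fold change was -0.18. Kcnq1ot1 was at 9619 ± 280 normalized counts in Mitol KO HSCs and 10749 ± 732 in control HSCs (log2 fold change -0.18, adjusted p = 0.154). Slc22a18 and Phlda2, imprinted like Cdkn1c, were at -0.62 (adjusted p = 0.131) and -0.40 (adjusted p = 0.437). By edgeR Slc22a18 was called lower without Mitol KO replicate 4 (adjusted p = 0.0437) and with the replicate number as a block (adjusted p = 0.0476). Over all genes tested, 4.68% were called higher and 3.75% lower, so a count of 0 among 7 genes is near those shares.

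Cdkn3 was also read against markers of proliferation. Of 10 such markers 6 rose (Mki67, Top2a, Rrm2, Birc5, Aurkb and Plk1) and 4 did not pass, with a median log2 fold change of 1.16. Higher calls made up 60% of these markers, beside 4.68% of all genes tested. The summed normalized count of the markers ran from 10520 to 22487 in Mitol KO libraries and from 7252 to 10346 in control libraries. Mki67, the gene of the antigen Ki-67, was at 3171 ± 827 and 1480 ± 500 (log2 fold change 1.08, adjusted p = 0.0197), and its call was lost without Mitol KO replicate 1 or 2 or control replicate 2 (largest adjusted p 0.0664). Per 100 units of Mki67 there were 2.91 ± 0.355 of Cdkn3 in Mitol KO HSCs and 5.42 ± 1.80 in control HSCs, ranges of 2.57 to 3.28 and 4.19 to 8.04 that did not overlap (exact permutation test on normalized counts, 2-sided p = 0.0286, 0.0429 adjusted over the 6 quantities). Cdkn3 itself did not pass the test (edgeR log2 fold change 0.27, adjusted p = 0.566). The edgeR interval of Cdkn3 (-0.32 to 0.85) spans both a fall and a rise. Mki67, the divisor, was called higher, so the lower ratio and its p-value do not by themselves show a change of Cdkn3. As stated above, reads of Cdkn3 and Cnih1 may not have been told apart. The part of each gene in the ratio was not tested. For Cdkn2c the ratio was 1.87 ± 0.540 and 2.24 ± 0.730 (exact permutation test, 2-sided p = 0.571).

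The library with the lowest proliferation sum in the Mitol KO group was replicate 4, at 10520, close to the highest control library. That library also held the lowest Cdkn2c and Cdkn3 values of its group, but the highest Cdkn2d, and its Cdkn1a at 385 and Cdkn1c at 60.3 were inside the range of its group. Among control libraries replicate 4 had the lowest proliferation sum, 7252, with the highest Cdkn1c and the lowest Cdkn1a. Its markers were not all low. Among controls its Mcm2 at 1275 was the lowest, but its Mki67 at 1548 was above replicates 1 and 2 and its Aurkb at 222 was the highest. Some genes of other blood lineages differed with the genotype as well. Of 10 red-cell genes 6 were tested, 4 did not pass and 2 rose, Gata1 (log2 fold change 3.30, adjusted p = 0.00381) and Hbb-bt (1.29, adjusted p = 0.0442), whose reads are hard to tell from those of its near-identical copy Hbb-bs. All 6 had positive log2 fold changes, with a median of 1.83, and 5 had an unadjusted p under 0.05 by edgeR. Higher calls made up 33.3% of the 6, beside 4.68% of all genes tested. The Hbb-bt call held in 3 of 8 fits with a library left out (largest adjusted p 0.105) and was lost with DESeq2 (adjusted p = 0.0503). The summed normalized count of the red-cell list was 1180, 1250, 3926 and 2698 in Mitol KO replicates 1 to 4 and 473 to 921 in control libraries. Of 7 megakaryocyte genes 4 were tested, and 1 fell, Pf4, at 10.985 to 17.2 normalized counts in Mitol KO and 26.4 to 62.0 in control libraries (log2 fold change -1.69, adjusted p = 0.0202), which was lost without Mitol KO replicate 2 or 3 or control replicate 4 (largest adjusted p 0.0641). That is 25% of the 4 megakaryocyte genes, beside 3.75% lower over all genes tested. Of the neutrophil, B-cell, T-cell and mast-cell lists 1, 1, 2 and 1 genes passed the filter, and 0 of these 5 were called by edgeR. Prtn3, the neutrophil gene among them, had an unadjusted p of 0.0077 (log2 fold change 0.76, adjusted p = 0.0674) and was called higher by DESeq2. The neutrophil gene S100a8, below edgeR's filter, was called lower by DESeq2 (adjusted p = 0.0284), and S100a9 was at 0 in all Mitol KO libraries and 2.64 to 21.3 normalized counts in control libraries. Elane and Cd3d were below the filter. The part of these genes or of the cycling genes in the Cdkn1a and Cdkn1c values was not tested.

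The genes whose pattern over the 8 libraries lay nearest to an inhibitor were taken by the root mean square difference in gene-centred log2 CPM, among 10933 genes with a mean log2 CPM of at least 3. For Cdkn1a, whose own root mean square deviation was 1.32, the nearest were Emilin2 at 0.277, Cd53 at 0.554 and Tgfbi at 0.632. For Cdkn1c, with a deviation of its own of 0.522, they were Dgkg at 0.145, Ephb6 at 0.162 and Nr1d2 at 0.163. For Cdkn1b, with 0.234, they were Rybp at 0.0635, Tob2 at 0.0864 and Ttc1 at 0.0960. The values of all genes come from the same 8 libraries and scaling, and these distances are a description.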

How the data were processed

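RNA-seq was performed on 8 libraries of 100 sorted HSCs. Reads of 75 bp (single-end) were mapped by the authors to mm39 with STAR, alignments were merged with SAMtools, and Subread gave the counts per gene, which the authors deposited without normalization. Annotation and strand setting are not given in the sources used here. The table holds 23094 rows with at least 11 counts each. Of these, 1029 rows without a gene symbol (0.335% to 0.467% of a library's counts) were left out. Positions and exon lengths came from GENCODE vM39 on GRCm39, where 21524 symbols matched.

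Counts were tested in edgeR (version 4.0.16, under R version 4.3.3) by its quasi-likelihood test after TMM scaling and its default expression filter, with condition as the sole term, over 16444 genes with Benjamini-Hochberg adjustment at 0.05. For normalized counts, each library was scaled by its DESeq2 (version 1.42.0) size factor. Shares and ratios were compared by 2-sided exact permutation over 70 arrangements. Alternatives were DESeq2, limma-voom (version 3.58.1), other scaling factors, no filter, the replicate number as a block, the longest transcript as length, and each library left out. The fit was tested on simulated counts. Log2 CPM used a prior count of 2.

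The members and gene lists were chosen with earlier results of these data known. Named were all members, list genes past the threshold, all CDKs and cyclins, a few regulators set by name, Marchf5 and the 3 genes nearest in pattern to Cdkn1a, Cdkn1c and Cdkn1b. A list of p53 targets, the ratio of Cdkn1a to Cdkn1c and the leave-one-out values of this ratio and the shares were added after the members' values were seen. Reads carry no molecular identifiers, so counts are not independent molecules, and 4 libraries per group limit the precision. A few genes and a promoter sequence are not reported here.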

Additional observations from a re-analysis of the deposited data

How the results depend on the processing

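The direction of all 6 inhibitors was unchanged under the 6 other normalizations, filters and tools and the 8 fits with a library left out, and 1 inhibitor was called higher, Cdkn1a, in all of them. The number called lower ranged from 0 to 1 over the left-out libraries and was 1 under the other settings. The adjusted p ran from 0.00464 to 0.0177 for Cdkn1a and from 0.00301 to 0.0338 for Cdkn1c over those other settings. Scaled to the longest transcript, the mean level was 9.50 CPM per kb for Cdkn1a and 2.52 for Cdkn3 in Mitol KO HSCs, and 11.9 for Cdkn2d and 2.10 for Cdkn3 in control HSCs, since that length is shorter than all exons merged. Cdkn1c and Cdkn3 then overlapped in Mitol KO HSCs and Cdkn3 and Cdkn2c did not in control HSCs.

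Over all genes, DESeq2 called 1350 higher and 965 lower, against 770 and 616 by edgeR. It called 12 of the 19 pocket protein, E2F and DREAM genes, 3 of the 10 ligase genes and 1 of the 6 red-cell genes, against 7, 1 and 2 by edgeR. With a library left out the counts ran from 167 higher and 192 lower without control replicate 2 to 1482 and 1019 without Mitol KO replicate 4, and moved by over 1.5 times for each library but control replicate 1. So did those of the lists, with 3 to 7 CDKs and cyclins, 2 to 12 pocket protein, E2F and DREAM genes and 2 to 9 proliferation markers called higher, the most without Mitol KO replicate 4. The cause was not tested. Over all genes tested, libraries with the same replicate number did not deviate together (correlations of deviations from the group means -0.070 to 0.080). Such a correlation cannot exclude a pairing that acts on some genes only. With the replicate block the fit called 957 higher and 695 lower genes, and gave log2 fold changes of 2.21 for Cdkn1a (adjusted p = 0.0121) and -0.94 for Cdkn1c (adjusted p = 0.0311). The low counts of Cdkn2c, 19.2 to 83.3 after normalization, limit what can be said of it.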

Other observations

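Cdkn1a is a classical target of p53, and a list of 12 other p53 targets was read beside it after its value was seen. Of the 11 that passed the expression filter, 0 were called in either direction by edgeR, DESeq2 or limma-voom. Over all genes tested, edgeR called 4.68% higher and 3.75% lower, so a count of 0 among 11 genes is near those shares. Of the 11, 0 had an unadjusted p under 0.05 by edgeR, and their median log2 fold change was -0.03, beside -0.02 over all genes tested. The activity of p53 was not tested. Mdm2, which encodes the ligase that degrades p53, was at 748 and 834 mean normalized counts in Mitol KO and control HSCs (log2 fold change -0.17, adjusted p = 0.326). Ccng1, the gene of cyclin G1, was at 609 and 616 (log2 fold change -0.03, adjusted p = 0.885).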
